A study of Danio rerio with 18 samples.

Results

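The genes described here are those whose zebrafish symbol places them in the fusion machinery or the membrane of synaptic vesicles: syntaxins, SNAP-25, VAMPs, complexins, synaptotagmins, syntaxin-binding proteins, synapsins, SV2 proteins and synaptophysins. Membership goes by the start of the symbol, which gave 83 members of the 32057 genes in the count table. After the filter on low counts 77 members remained among 20353 tested genes. The libraries came from pooled whole brains of 4-month-old zebrafish, with 4 brains per pool, 2 from females and 2 from males. The fish were offspring of parents that each carried 1 copy of hu3528, an allele of mfn2 that the labels call loss-of-function, and 3 sibling genotypes were compared: WT (+/+, no mutant allele), Het (+/-, a single copy of it) and Hom (-/-, homozygous for it). Each of 6 families, raised from 1 mating of its own parental pair, gave 1 library per genotype, so that each genotype had 6 libraries and there were 18 in all. Siblings were genotyped at 2.5 months and then kept in 1 tank per genotype within a family, so genotype and tank cannot be told apart. Symbols carried by more than 1 gene ID are given with the ID, and counts of closely similar paralogs are uncertain because the handling of reads that map to several places is not given in the sources used here.

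A synaptic vesicle releases its transmitter when a SNARE protein of its own membrane, a VAMP (synaptobrevin), zips together with syntaxin and SNAP-25 of the plasma membrane. Munc18 proteins, encoded by stxbp genes, hold syntaxin and guide the assembly. Complexins bind the assembled SNAREs, and synaptotagmins sense the calcium that triggers fusion. Synapsins tether vesicles in the reserve pool, whereas SV2 proteins and synaptophysins are abundant proteins of the vesicle membrane. Other syntaxins and VAMPs serve the endosome, the Golgi apparatus and the endoplasmic reticulum in all cells. Teleost fish carry many of these genes as paralog pairs.

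Total counts per library ran from 21945070 to 42897654. The transcript of mfn2, which checks the genotype labels, averaged 120.2 ± 23.0 normalized CPM (counts scaled by library size) for WT, 82.9 ± 18.5 for Het and 29.0 ± 3.22 for Hom (mean ± SD, n = 6 each). In family 2 it went against 2 labels, with 75.2 in the library labelled WT and 117.1 in the library labelled Het. Calls made by edgeR with all libraries, of members and of the other genes named as changed, are therefore also given without family 2. Calls by DESeq2, or from the fit that leaves out the 3 libraries described next, were not repeated without family 2. A further 3 libraries, Het of family 1, Het of family 3 and Hom of family 3, stood apart across the transcriptome. Their log2 values deviated from the median of all 18 libraries with an SD of 0.703 to 1.13, against 0.191 to 0.288 in the other 15. The members shared in this: 16, 13 and 20 of the 77 tested members lay over 2-fold from the median of all 18 libraries in those 3. These were 20.8%, 16.9% and 26.0% of members, beside 14.1%, 14.003% and 26.2% of all genes. In each of the other libraries 0 to 2 members lay that far away. Many results are given with and without those 3 libraries. A fold change given only once is from all 18 libraries and may depend on those 3.

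In Hom brain 3 members changed and the other 74 did not pass the test. The v-SNARE vamp1a and the complexin cplx2a fell and a syntaxin of another branch, stx11 (ENSDARG00000044039), rose. These were the 3 members past edgeR's quasi-likelihood test for Hom against WT at a Benjamini-Hochberg adjusted p of 0.05 over all tested genes, 1 higher and 2 lower. Of all genes tested, 1.49% were called higher and 0.423% lower in that comparison, beside 1.30% and 2.597% of members. The median log2 fold change of the 77 members was −0.05, against 0.04 over all tested genes, and 48 members (62.3%) had a negative value, against 44.5% of all genes. At an unadjusted p under 0.05 there were 14 members, 12 lower and 2 higher, which is 18.2% of members beside 14.3% of all genes. DESeq2 on the same 18 libraries called 9 members, the 3 above with vamp1b, snap25 (ENSDARG00000020609), stxbp6, syn2, sypb and syt12, where it called 5.18% of all genes. Calls below are those of edgeR unless DESeq2 is named.

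Leaving out the 3 libraries that stand apart raised the number of members past the test from 3 to 13 of 78 tested. The 3 higher members were then stx11 (ENSDARG00000044039), stx2a and stxbp2, where 4.77% of all genes were called higher. The 10 lower members included vamp1a, vamp1b, vamp5, cplx2a, snap25 (ENSDARG00000020609), stxbp6, syn2b, sypb and syt12, where 3.29% of all genes were called lower. Over all 18 libraries, the Hom and WT groups did not overlap for 5 tested members: stx11 (ENSDARG00000044039) lay higher in every Hom library, as did 1.62% of all genes, and vamp1a, cplx2a, snap25 (ENSDARG00000020609) and sypb lay lower in every Hom library, as did 1.42% of all genes. In the 15 remaining libraries 9 members did not overlap. The 3 higher were stx11 (ENSDARG00000044039), stx2a and stxbp2, beside 2.6% of all genes. The 6 lower included the 4 above and syn1, beside 1.74% of all genes. The summed normalized CPM of all members, to which snap25 (ENSDARG00000020609) contributes most, was 18540 to 20818 in WT, 18967 to 20900 in Het and 15428 to 17714 in Hom. In this sum each Hom library lay below each WT and Het library. With that snap25 gene left out of the sum the ranges overlap, through the 3 libraries that stand apart. How often sums of other genes separate in this way was not examined, so the separation cannot be called particular to the members.

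**Figure D1:**
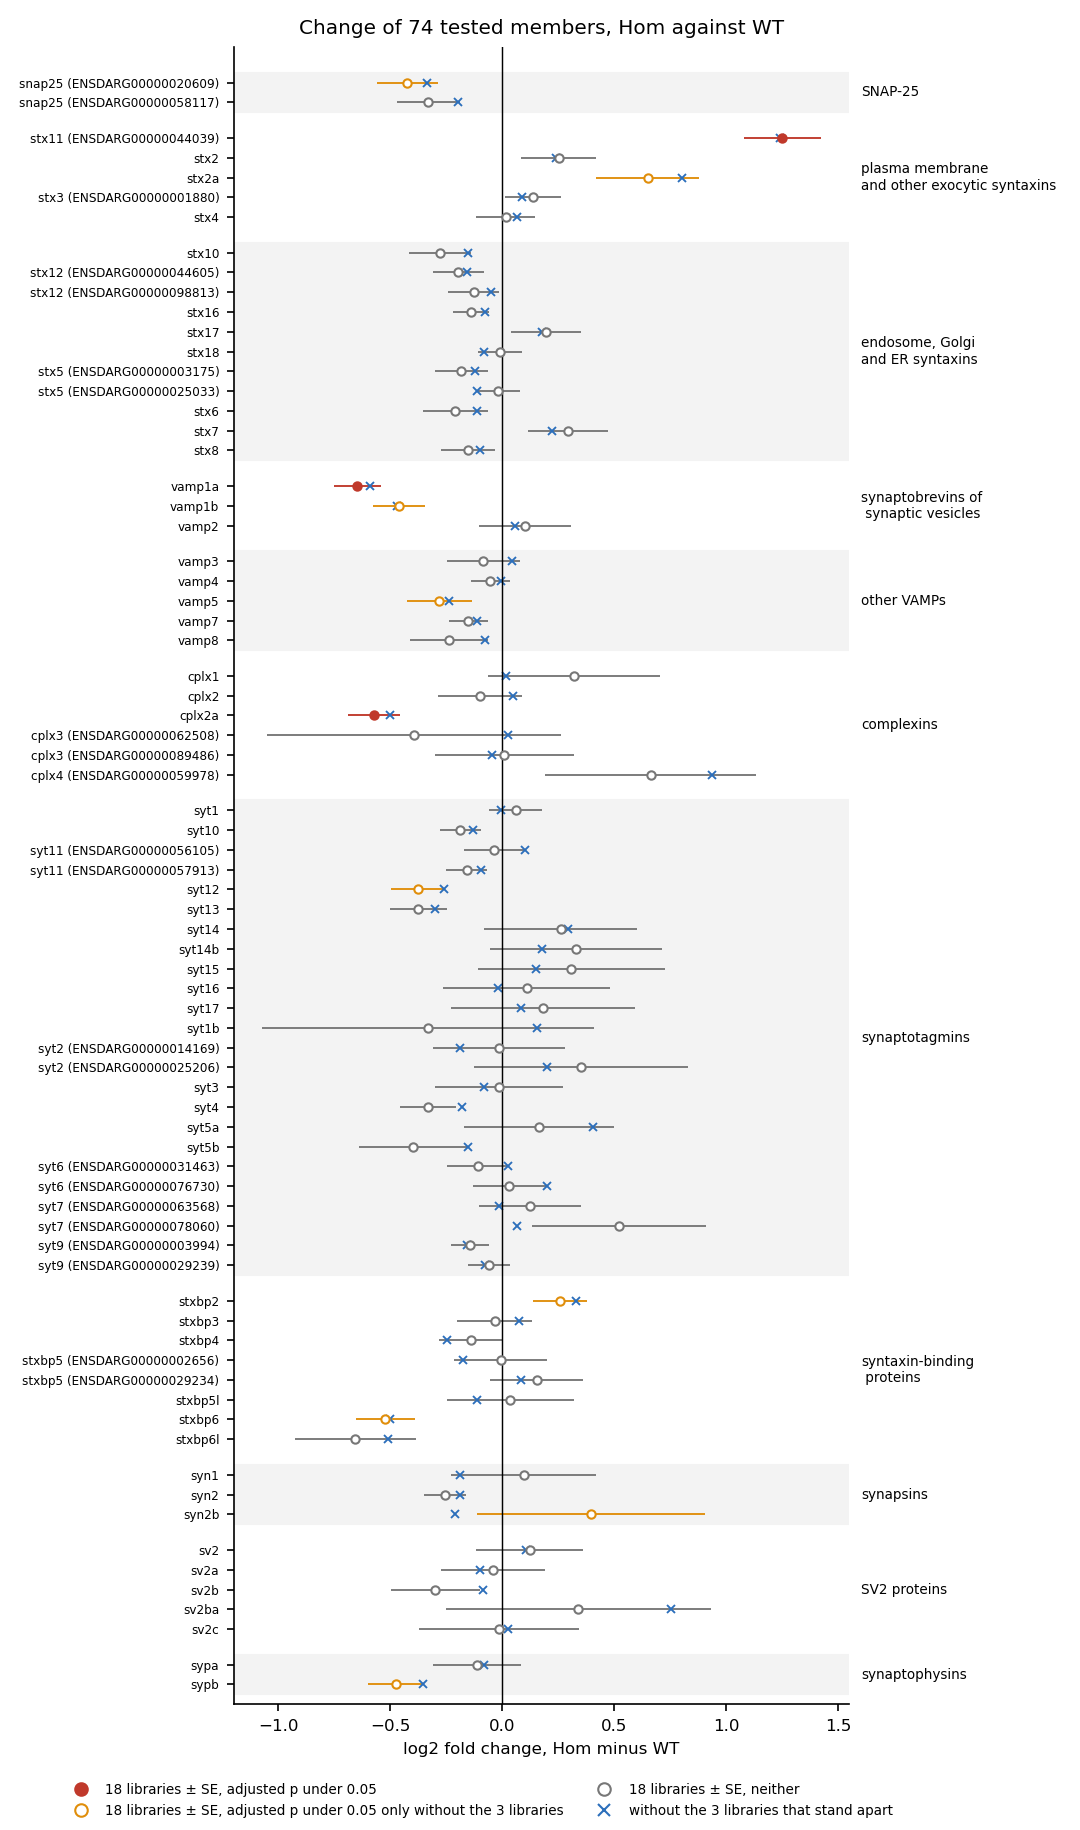
Log2 fold change of 74 of the 77 tested members for Hom against WT, grouped by role, with circles and SE bars from all 18 libraries and crosses from the fit without the 3 libraries that stand apart. The 3 filled circles are the members past an adjusted p of 0.05 with all libraries, and the wide bars of syn2b, cplx1 and several synaptotagmins come with crosses that lie near 0 or on the other side of it.

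Among the v-SNAREs of the synaptic vesicle, vamp1a showed the clearest difference. This gene is a zebrafish counterpart of mammalian VAMP1 (synaptobrevin 1), which in mouse serves release in the brainstem, the spinal cord and at the neuromuscular junction. Its normalized CPM was 810.4 to 987.7 in WT (median 857.0), 872.0 to 989.5 in Het (median 940.8) and 437.8 to 629.6 in Hom (median 556.5). All 6 Hom libraries lay below all 12 others, and the lowest was the Hom library of family 3. Against WT, vamp1a fell by 0.65 ± 0.10 (SE) on the log2 scale, lower in 6 of 6 families, with an adjusted p of 0.0058. The log2 fold change was −0.59 with an adjusted p of 3.14e-04 without the 3 libraries that stand apart, −0.67 with 0.0295 without family 2, and −0.64 with 0.0549 without family 4, the one of 24 omissions of a family or a library that ended the call. In pooled whole brain, fewer cells of a type and less RNA per cell cannot be told apart, for this and every gene below.

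The paralog vamp1b had 22.7 to 39.1 normalized CPM in WT (median 30.9), 29.4 to 43.3 in Het (median 37.6) and 19.2 to 25.7 in Hom (median 21.4). The Hom range overlapped WT through the low WT library of family 6 and lay below every Het library. Its log2 fold change for Hom against WT was −0.46 ± 0.12, negative in 6 of 6 families, with an adjusted p of 0.068, and −0.47 with an adjusted p of 0.016 without the 3 libraries. By contrast vamp2, counterpart of the main forebrain synaptobrevin of mammals, was at 97.1 to 148.7 in WT (median 130.3), 73.6 to 157.1 in Het (median 122.97) and 102.5 to 183.5 in Hom (median 133.6). The vamp2 groups overlapped throughout, and the log2 fold change was 0.10 ± 0.21 (adjusted p = 0.84). The difference between these genes was not tested.

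The other 5 VAMPs, known mainly from other membrane traffic such as endosomal, lysosomal and constitutive traffic, gave log2 fold changes of −0.28 to −0.05, none past the test with all libraries. The lowest was that of vamp5, which is known from muscle in mammals, at −0.28 ± 0.14 with an adjusted p of 0.41. It was called lower without the 3 libraries (−0.24, adjusted p = 0.045).

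The SNAP-25 genes encode the plasma membrane SNARE that gives 2 helices to the complex. For snap25 (ENSDARG00000020609) the normalized CPM was 4645 to 5416 in WT (median 5181), 5158 to 6281 in Het (median 5404) and 2512 to 4571 in Hom (median 4032). No Hom library reached the lowest WT library, and the lowest value was again that of Hom of family 3. The log2 fold change was −0.42 ± 0.14, negative in 6 of 6 families, and did not pass the test with all libraries (adjusted p = 0.16). The change was smaller and its error less without the 3 libraries, at −0.33 ± 0.05 with an adjusted p of 0.0031. The second copy, snap25 (ENSDARG00000058117), was at 922.4 to 1189 in WT, 941.9 to 1286 in Het and 503.1 to 1030 in Hom, with a log2 fold change of −0.33 ± 0.14 (adjusted p = 0.31). It was negative in 6 of 6 families and did not pass without the 3 libraries either (adjusted p = 0.086).

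Stx1a, a syntaxin of the presynaptic membrane, had 3 counts in all, spread over 2 libraries, and 0 in the other 16, and was not tested.

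**Figure D2:**
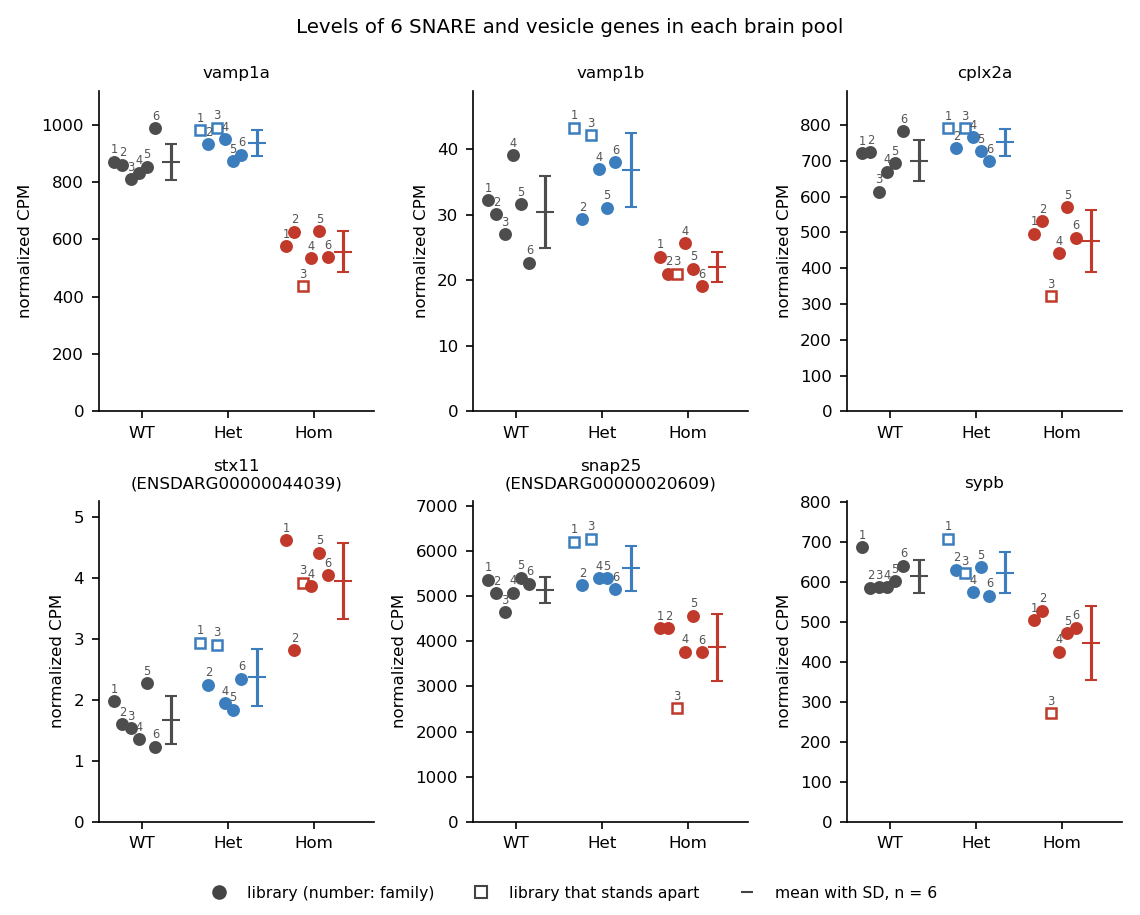
Normalized CPM of vamp1a, vamp1b, cplx2a, stx11 (ENSDARG00000044039), snap25 (ENSDARG00000020609) and sypb in each of the 18 libraries, by genotype, with the family number above each point, open squares for the 3 libraries that stand apart and bars for the mean and SD (n = 6). Hom points lie below all WT points for vamp1a, cplx2a, snap25 and sypb, above them for stx11, and overlap WT for vamp1b.

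Among the remaining plasma membrane syntaxins, stx11 (ENSDARG00000044039) rose. In humans syntaxin 11 is needed for granule release by cytotoxic lymphocytes, where it works with the Munc18 protein STXBP2. Its level was low, with 32 to 143 counts per library, or 1.23 to 2.28 normalized CPM in WT (median 1.57), 1.84 to 2.94 in Het (median 2.298) and 2.82 to 4.62 in Hom (median 3.985). Every Hom library lay above every WT library. The Het libraries reached into both ranges, but into that of Hom only in families 1 and 3 (2.94 and 2.91), whose Het libraries stand apart. The other Het libraries were at 1.84 to 2.35. Against WT it rose by 1.25 ± 0.17 on the log2 scale, higher in 6 of 6 families (adjusted p = 0.0021). The value was 1.24 without the 3 libraries and 1.35 without family 2, with adjusted p of 0.0022 and 0.0090, and it passed the test under all 29 alternatives run. Of 25 tested microglia and macrophage markers 5 were also higher in Hom, namely spi1, havcr1, slc7a7, apoeb and havcr2, and 3 of them, spi1, havcr1 and slc7a7, passed without family 2. Without the 3 libraries 19 of the 25 were higher and 1 lower, beside 4.77% and 3.29% of all genes. Their summed normalized CPM was 1338 to 1834 in WT, 1371 to 2138 in Het and 2151 to 3024 in 5 Hom libraries, but 932.8 in Hom of family 3, where stx11 was at 3.93. No marker of that list was at 0 in all libraries. The part of these cells in the stx11 result was not tested, and no list of lymphocyte markers was read.

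The other exocytic syntaxins gave smaller values. Stx2a, whose mammalian counterpart acts in secretion and in epithelia, was at 1.03 to 1.85 normalized CPM in WT, 1.082 to 2.33 in Het and 1.74 to 3.97 in Hom. Its log2 fold change of 0.65 ± 0.23 did not pass the test (adjusted p = 0.22) and passed without the 3 libraries (0.80, adjusted p = 0.020). For stx2, stx3 (ENSDARG00000001880) and stx4 the log2 fold changes were 0.25, 0.14 and 0.02, with adjusted p of 0.55 to 0.97. The other copies of stx11 and stx3 fell under the filter, at 0.34 normalized CPM or less in each group mean.

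All 11 syntaxins of the endosome, Golgi and endoplasmic reticulum were tested and none passed, with or without the 3 libraries. Their median log2 fold change was −0.14, from −0.28 for stx10 to 0.30 for stx7, and 9 of the 11 were negative. Without the 3 libraries stx10 was at −0.15 and stx7 at 0.22. Stx12 (ENSDARG00000044605), an endosomal syntaxin, stood at 131.8 to 208.4 normalized CPM in WT and 114.6 to 176.6 in Hom, with a log2 fold change of −0.19 ± 0.11 (adjusted p = 0.48) and a negative sign in 6 of 6 families.

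Of the complexins, which clamp and promote fusion of docked vesicles, cplx2a fell. It was at 613.9 to 783.2 normalized CPM in WT (median 707.3), 698.3 to 791.2 in Het (median 750.7) and 322.1 to 571.3 in Hom (median 491.3). The Hom range lay below both others, with the Hom library of family 3 lowest. Against WT the fall was by 0.57 ± 0.12 on the log2 scale in 6 of 6 families, with an adjusted p of 0.024. The call was lost in 14 of 24 omissions of a family or a library, among them family 2 (−0.59, adjusted p = 0.088), families 1, 4, 5 and 6, each of the 6 WT libraries, and the Hom libraries of families 1, 4 and 6. Across those omissions the log2 fold change stayed between −0.63 and −0.48 and the adjusted p between 0.0043 and 0.145. Without the 3 libraries that stand apart it was −0.50 (adjusted p = 0.0010).

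The related cplx2 did not pass, at 112.9 to 167.5 normalized CPM in WT, 128.2 to 214.5 in Het and 67.7 to 192.8 in Hom. Its log2 fold change was −0.10 ± 0.19 (adjusted p = 0.83), and 0.050 without the 3 libraries. Cplx1 was at 84.8 to 128.2 in WT, and the 308.4 of Hom of family 3 against 85.2 to 120.0 in the other Hom libraries gave it a log2 fold change of 0.32 ± 0.38 (adjusted p = 0.73). Without the 3 libraries it was 0.02.

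Complexins 3 and 4 are the forms of retinal ribbon synapses in mouse. In these brains cplx4 (ENSDARG00000059978) was at 0.26 to 1.97 normalized CPM in WT, 0.19 to 0.64 in Het and 0.78 to 1.61 in Hom. It was called in no comparison by edgeR, while DESeq2 called it higher in Hom than in Het (adjusted p = 0.022). The Hom libraries all lay above the Het libraries, a separation whose share over all genes was not taken. This gene had only 5 to 64 counts per library. Its highest WT values, 1.97 in family 3 and 1.504 in the library labelled WT of family 2, fell in the WT libraries with the highest summed photoreceptor and pineal markers, at 195.3 and 106.0 normalized CPM against 28.7 to 60.7 in the other 4. Cplx4c, which did not pass the filter, had 35 and 27 counts in the same libraries, 20 in Hom of family 6 and 0 to 2 in the rest. Hom of families 1 and 4 had marker sums as high as the library labelled WT of family 2, at 119.3 and 109.4, and there cplx4 was at 1.36 and 1.61 while cplx4c had 1 count each. The 2 cplx3 genes gave log2 fold changes of −0.39 ± 0.65 and 0.01 ± 0.31 for Hom against WT, or 0.03 and −0.05 without the 3 libraries that stand apart. The part of photoreceptor or pineal cells in these values was not tested.

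None of the 24 synaptotagmins passed edgeR's test for Hom against WT with all libraries. Their median log2 fold change was −0.01, from −0.40 for syt5b to 0.52 for syt7 (ENSDARG00000078060). Without the 3 libraries that stand apart syt5b was at −0.15 and syt7 (ENSDARG00000078060) at 0.066. Syt1, the fast calcium sensor, was at 952.9 to 1066 normalized CPM in WT, 759.7 to 1104 in Het and 911.3 to 1284 in Hom. These ranges overlapped, and the log2 fold change was 0.06 ± 0.12 (adjusted p = 0.83), or −0.0045 without the 3 libraries. The low syt1b was at 0.04 to 1.06 in WT and 0 to 0.84 in Hom, with −0.33 ± 0.74 (adjusted p = 0.86). Syt12, a form that in mammals lacks calcium binding and sits on synaptic vesicles, came nearest to a call, at 289.1 to 352.5 in WT, 206.1 to 347.0 in Het and 155.7 to 292.4 in Hom. Its log2 fold change was −0.38 ± 0.12 with an adjusted p of 0.16, and −0.26 with an adjusted p of 0.030 without the 3 libraries. DESeq2 called it with all libraries (−0.37, adjusted p = 0.038).

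Of the 10 syntaxin-binding genes none passed edgeR's test for Hom against WT with all libraries, and DESeq2 called stxbp6 alone (−0.52, adjusted p = 0.0091). Stxbp6 encodes amisyn, a soluble SNARE-like inhibitor of complex assembly in mammals. It was at 8.19 to 14.2 normalized CPM in WT, 7.63 to 12.6 in Het and 5.33 to 9.40 in Hom. The groups overlapped and the log2 fold change was −0.52 ± 0.13, negative in 6 of 6 families, with an adjusted p of 0.071, or −0.50 with 0.035 without the 3 libraries. Stxbp6l had the most negative value of all members, −0.66 ± 0.27, with an adjusted p of 0.29. Stxbp2, the human partner of syntaxin 11 named above, was at 10.99 to 13.5 in WT and 10.9 to 16.8 in Hom. Its 0.26 ± 0.12 did not pass (adjusted p = 0.35), while 0.33 without the 3 libraries did (adjusted p = 0.034). Its lowest Hom value, 10.9, was that of Hom of family 3, where the microglia markers, but also vamp1a, cplx2a and sypb, were lowest. The part of microglia in the stxbp2 values was not tested.

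For the synapsins, the sign depended on Hom of family 3. Syn2b was at 174.5 to 210.5 normalized CPM in WT, 65.9 to 219.7 in Het and 140.4 to 180.7 in 5 Hom libraries, and at 1282 in Hom of family 3. Its log2 fold change was 0.40 ± 0.51 (adjusted p = 0.75) with all libraries and −0.21 (adjusted p = 0.042) without the 3. Syn1 likewise had 1324 in that library, 472.5 to 558.7 in the other Hom libraries and 561.0 to 616.1 in WT. It moved from 0.10 ± 0.32 (adjusted p = 0.91) to −0.19 (adjusted p = 0.068). Syn2 kept its sign, with 389.1 to 482.9 in WT, 265.7 to 422.7 in Hom and −0.25 ± 0.10 (adjusted p = 0.25), or −0.19 without the 3 libraries (adjusted p = 0.052).

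Synaptophysin is the most used marker protein of synaptic vesicles. Its paralog sypb was at 585.0 to 685.9 normalized CPM in WT (median 593.4), 565.1 to 707.2 in Het (median 625.4) and 271.9 to 527.2 in Hom (median 478.6). All Hom libraries lay below all others, and Hom of family 3 lay lowest. The log2 fold change was −0.47 ± 0.12 in 6 of 6 families and missed the threshold (adjusted p = 0.081). It passed without the 3 libraries (−0.35, adjusted p = 0.0030). Sypa was at 876.3 to 1050 in WT, 391.8 to 1095 in Het and 774.4 to 960.7 in Hom, with −0.11 ± 0.20 (adjusted p = 0.81). Without the 3 libraries the Het range of sypa was 906.4 to 1095 and its log2 fold change −0.08 (adjusted p = 0.33). In the GRCz12tu assembly, where 45 members were matched by symbol, sypb lies on chromosome 8 with 28 protein-coding genes between it and mfn2. Syn1 and sypa lie farther away on the same chromosome (460 and 694 genes between), and vamp1a, vamp1b and cplx2a lie on chromosomes 19, 16 and 1. Stx11 (ENSDARG00000044039) and both snap25 copies were not matched, so their position relative to mfn2 is not known here. Sequence next to mfn2 is inherited with the mutation in these families, so for sypb the genotype and its neighbourhood cannot be told apart.

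SV2 proteins are transporter-like glycoproteins of the vesicle membrane. None of the 5 SV2 genes passed. Sv2a was at 708.9 to 1019 normalized CPM in WT, 314.8 to 1047 in Het and 618.9 to 894.5 in Hom, with −0.04 ± 0.23 (adjusted p = 0.95). Without the 3 libraries that stand apart its Het range was 712.5 to 1047 and its log2 fold change −0.10 (adjusted p = 0.42). The other 4 SV2 genes had log2 fold changes of −0.30 to 0.34 with all libraries, with sv2 at 0.12 ± 0.24.

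In Hom of family 3 members deviated in both directions, and the share over 2-fold away was 26.0% of members and 26.2% of all genes. In Het of families 1 and 3 that share was 20.8% and 16.9% of members, beside 14.1% and 14.003% of all genes. Relative to the median of all 18 libraries, syn1, cplx1 and syt2 (ENSDARG00000025206) were over 2-fold higher in Hom of family 3 and over 2-fold lower in Het of families 1 and 3. No tested member had the reverse pattern at that fold. With any size of deviation, 26 members were higher in Hom of family 3 and lower in both Het libraries, and 33 were the other way round. In Het of families 1 and 3, 16 and 12 members were over 2-fold low, and 0 and 1 were over 2-fold high. In Hom of family 3, 7 were over 2-fold high and 13 over 2-fold low. Shares by direction were not taken over all genes, so these splits cannot be called particular to the members. Syn1 shows the size of it, at 204.2 as the lowest Het value against 536.0 to 609.2 in the 4 other Het libraries. For vamp1a, cplx2a and sypb the Hom library of family 3 was the lowest of its group, whereas for stx11 it was inside the range of the other Hom libraries.

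**Figure D3:**
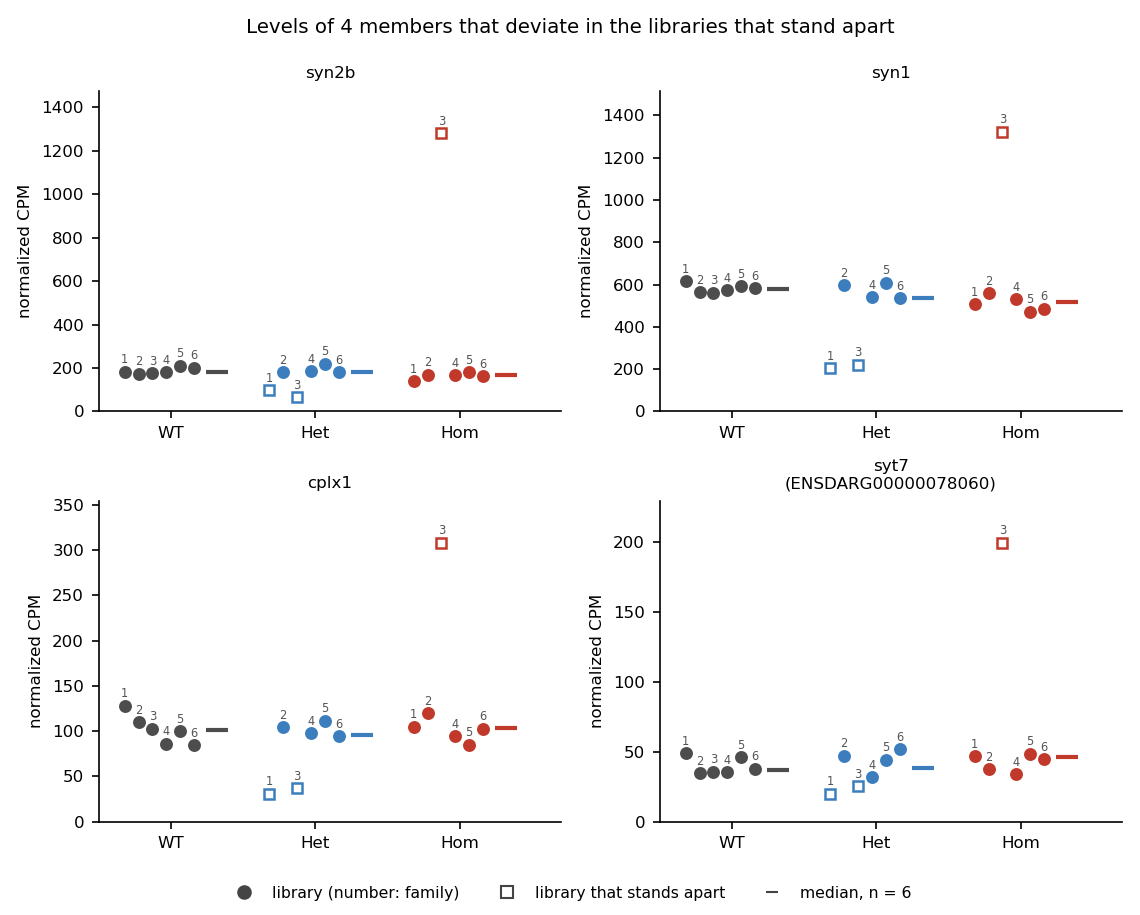
Normalized CPM of syn2b, syn1, cplx1 and syt7 (ENSDARG00000078060) in each library, by genotype, with the family number above each point, open squares for the 3 libraries that stand apart and a short bar for the median (n = 6). The Hom library of family 3 lies far above the other 5 Hom libraries in each panel and the 2 open Het squares lie lowest among Het.

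With 1 mutant copy, no change was called. For Het against WT, 0 members and 0 genes passed edgeR's test (0% of genes higher and 0% lower), 2 members and 524 genes had an unadjusted p under 0.05, and DESeq2 called 0 members and 2 genes (0.00983%). The 5 members of smallest p, none of which passed, were stx11 (ENSDARG00000044039) at 0.52 ± 0.17 on the log2 scale, vamp1b at 0.28 ± 0.12, syt5a at −0.70 ± 0.33, syt7 (ENSDARG00000063568) at −0.46 ± 0.23 and cplx4 (ENSDARG00000059978) at −0.90 ± 0.48, each with an adjusted p of 0.90. For vamp1a and cplx2a the Het means were above those of WT, at 936.6 ± 46.5 against 869.3 ± 62.0 normalized CPM and at 751.3 ± 37.4 against 700.9 ± 57.2 (SD, n = 6), with log2 fold changes of 0.11 ± 0.10 and 0.11 ± 0.12.

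Hom and Het brains were also compared with each other, a comparison that shares its Hom libraries with the one above. Of the members, 1 was higher and 3 were lower, where 1.19% of all genes were called higher and 0.801% lower. Vamp1a was lower by −0.76 ± 0.10 on the log2 scale (adjusted p = 0.0024), vamp1b by −0.74 ± 0.12 (adjusted p = 0.0053) and cplx2a by −0.68 ± 0.12 (adjusted p = 0.0099), each in 6 of 6 families. The calls of vamp1a and vamp1b held under all 29 alternatives, and that of cplx2a under 27. Without family 2 the log2 values were −0.78, −0.78 and −0.71, with adjusted p of 0.0156, 0.0209 and 0.0453. Stx11 (ENSDARG00000044039) was higher by 0.73 ± 0.17 (adjusted p = 0.047) in 6 of 6 families, a call lost in 19 of 24 omissions of a family or a library, family 2 among them (adjusted p = 0.088), and without the filter on low counts. Next in order came snap25 (ENSDARG00000020609) at −0.56 ± 0.14 (adjusted p = 0.056). DESeq2 called 12 members, where it called 7.99% of all genes. Without the 3 libraries, 2 members were called higher and 7 lower, where 2.93% of all genes were higher and 1.83% lower. The higher were stx11 (ENSDARG00000044039) and stx2a. The lower included vamp1a, vamp1b, cplx2a, snap25 (ENSDARG00000020609), sypb and syt12.

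Because several of these genes are paralog pairs of which 1 copy had the larger value, the change from WT to Hom was compared within each family for 22 pairs, a comparison added after the values were seen. Pairs were formed from symbols that match once a final a or b is dropped. By this rule sv2, sv2a and sv2b were also paired with each other, although they need not be copies of 1 gene. With 6 families the smallest exact two-sided sign permutation p is 0.03125, so an adjusted p under 0.05 would need 14 of the 22 pairs to reach it together. That no pair passed (lowest adjusted p = 0.344) therefore says little, and the values are given as a description. The pair sypa and sypb reached that p, with a within-family log2 ratio of −0.11 ± 0.09 for sypa and −0.48 ± 0.32 for sypb (SD, n = 6), and sypb the lower in 6 of 6 families. The 2 copies of syt9 reached it too, but differed by only 0.08 ± 0.05. Cplx2a was lower than cplx2 by 0.44 ± 0.34 in 5 of 6 families (exact p = 0.0625). For vamp1a and vamp1b the ratios were −0.65 ± 0.20 and −0.44 ± 0.13 (exact p = 0.219), and for the 2 snap25 copies −0.44 ± 0.24 and −0.34 ± 0.36 (exact p = 0.281). These pairs share libraries and are not independent of each other.

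Proteins that work beside the SNAREs were examined as 4 lists of other genes. In the list of SNARE priming and recycling, 0 of 24 tested genes passed for Hom against WT, and the median log2 fold change was −0.08. The 3 of smallest p were nsf, the ATPase that pulls spent SNARE complexes apart, at −0.38 ± 0.13 (adjusted p = 0.18), rab3c, a vesicle GTPase, at −0.28 ± 0.09 (adjusted p = 0.18), and napg (ENSDARG00000043012), an adaptor of that ATPase, at −0.44 ± 0.17 (adjusted p = 0.26). Without the 3 libraries 3 of the 24 were lower, beside 3.29% of all genes, nsf among them (−0.27, adjusted p = 0.0053). Of the active zone scaffold and calcium channel genes, 0 of 33 passed, with a median of 0.12. Without the 3 libraries the median was −0.04 and 1 was lower, beside 3.29% of all genes. Cacna2d3 (ENSDARG00000078760), a calcium channel subunit, came first by p at −0.46 ± 0.16 (adjusted p = 0.22), followed by the scaffold genes ppfia1 at 0.88 ± 0.56 and erc1 (ENSDARG00000009941) at −0.14 ± 0.11. Without the 3 libraries these genes were at −0.38, 0.20 and −0.03. The summed normalized CPM of this list was 10166 in Hom of family 3 against 3240 to 3615 in the other Hom libraries.

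In the list of vesicle transporters and other vesicle membrane proteins, 1 of 31 tested genes was higher and 0 lower. The higher gene was sypl2 (ENSDARG00000000690), a relative of synaptophysin known from muscle in mammals, at 2.83 ± 0.72 normalized CPM in WT and 5.97 ± 1.57 in Hom (SD, n = 6) and a log2 fold change of 1.09 ± 0.24 (adjusted p = 0.034), a call lost without family 2 (1.11, adjusted p = 0.12). Syngr2, a synaptogyrin found in many cells, followed at −0.43 ± 0.11 (adjusted p = 0.081) and sncg (ENSDARG00000109715), a synuclein, at −0.34 ± 0.10 (adjusted p = 0.12). In the 15 other libraries 1 was higher and 5 were lower, beside 4.77% and 3.29% of all genes, with syngr2 and sncg among the lower. Of the vesicle endocytosis genes 0 of 31 passed, with a median of −0.01. The first by p were sh3gl2, an endophilin, at −0.48 ± 0.15 (adjusted p = 0.15), dnm3a, a dynamin, at 0.38 ± 0.12 (adjusted p = 0.15) and sh3gl1a at 1.30 ± 0.41 (adjusted p = 0.16). Sh3gl1a was near the floor, at 0.49 ± 0.52 normalized CPM in WT and 1.08 ± 0.80 in Hom (SD, n = 6). Omission of the 3 libraries gave 1 higher and 5 lower of the endocytosis genes, beside 4.77% and 3.29% of all genes.

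Markers of the cell types a brain dissection can hold were read in the same fit. Of 27 pan-neuronal markers, 1 passed for Hom against WT, tubb2b (ENSDARG00000039522), a neuronal tubulin, which was lower at −0.86 ± 0.18 (adjusted p = 0.030), and the list's median was −0.10. Without family 2 tubb2b (ENSDARG00000039522) did not pass (−0.93, adjusted p = 0.076). Their summed normalized CPM was 8650 to 9523 in WT, 8951 to 10010 in Het and 7325 to 9405 in Hom, so the groups overlapped. The overlap came from Hom of family 3, the highest Hom sum, and Hom of family 6 at 9158. Hom of families 1, 2, 4 and 5 lay at 7325 to 8373, below every WT and Het library. When the 3 libraries were left out, 5 of the 27 pan-neuronal markers were lower, beside 3.29% of all genes. Myelin and oligodendrocyte markers summed to 14203 to 21949 in WT, 15783 to 29651 in Het and 7767 to 19626 in Hom with 0 of 15 called, and radial glia and astroglia markers to 5367 to 7113, 5161 to 6981 and 4490 to 6334 with 0 of 16 called. Endothelial markers summed to 288.8 to 366.0 in WT, 300.6 to 382.3 in Het and 338.2 to 598.0 in Hom, with 2 of 19 higher, or 1 without family 2. None of the 16 photoreceptor and pineal, 7 pituitary, 4 oocyte and 7 red blood cell markers that were tested passed. Oocyte markers summed to 309.3 in Hom of family 3 against 18.7 to 31.8 in the other Hom libraries. The part of cell type proportions in the lower vamp1a, cplx2a, snap25 and sypb values was not tested.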

How the data were processed

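RNA of 18 pools of zebrafish brains was analysed from the gene counts that the authors deposited as 1 table, with no normalization. STAR 2.7.0a, featureCounts of Subread 1.5.2 and the build GRCz11 are named in the submitters' processing notes; which annotation, strand setting and rule for multiply mapped reads were used was not given in the sources used here. All 18 columns of values were matched by name and 0 were left unused. Symbols came from a table that named 28988 IDs. Membership follows the symbol alone, but the group of genes, the role groups and the gene lists were chosen with earlier results of these data known; list symbols that failed to match were tried again without a trailing paralog letter or number, and members were left out of the lists.

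The test was the quasi-likelihood test of edgeR 4.0.16 under R 4.3.3 (genotype plus family, all 18 libraries, TMM, filterByExpr by genotype at 10 counts and a total of 15, prior count 0.125, Benjamini-Hochberg over all tested genes, threshold 0.05), after a check on simulated counts. An SE is the log2 fold change over the square root of F. Normalized CPM use TMM-scaled library sizes and carry no length correction, so levels were not compared between genes; n is the number of libraries. Within-family ratios are of log2(CPM + 0.5). A library's deviation was taken over genes with a mean of at least 10 normalized CPM. Alternatives were no family block, RLE scaling, DESeq2 1.42.0, no filter, omission of each family or library, and omission of 3 libraries. The family block rests on the shared mating given in the labels: deviations from genotype means correlated at a median r of 0.190 over 18 same-family pairs, 3 of them below 0.1, and −0.059 over 90 different-family pairs.

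Genes named are, per comparison, members that passed (or, where fewer than 5 passed, the 5 of smallest p), a core list of fusion genes, the member of highest mean CPM per role, mfn2, and the 3 of smallest p from each pathway list. Others were named after their values were seen: stx2a, stx2, stx3, stx4, stx7, stx10, stxbp2, stxbp6l, vamp5, cplx1, cplx3, cplx4c, syt2, syt5b, syt7 (ENSDARG00000078060), syt9, syt12 and the marker genes. Some members are counted but not reported here by name. Sequences of the members were not used here.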

Additional observations from a re-analysis of the deposited data

Results flagged for a closer look

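In each group of 6 libraries, the gap of a library to the nearest other value was taken as a share of the group's range. A library is singled out here when this share exceeds Dixon's critical value. The rule was applied to mfn2 and the 23 tested members named by rule, over 72 groups, of which 8 had such a library. Members named after their values were seen, cplx1, syt5b and syt7 (ENSDARG00000078060) among them, were not included. Chance marks about 1 in 20 groups. Of the 8, 3 were in Hom of family 3: syn2b at 1282 normalized CPM (remaining Hom libraries 140.4 to 180.7), syn1 at 1324 against 472.5 to 558.7, and syt7 (ENSDARG00000063568) at 5.57 against 2.13 to 3.15. Syt5a was at 2.62 in Het of family 3 against 0.83 to 1.11 in the other Het libraries. Mfn2 was at 75.2 in the library labelled WT of family 2 (rest of WT 119.9 to 140.2). The last 3 were in libraries that did not stand apart elsewhere: stx12 (ENSDARG00000044605) at 176.6 in Hom of family 4 against 114.6 to 134.6, sypa at 1050 in WT of family 5 against 876.3 to 940.6, and vamp1a at 987.7 in WT of family 6 against 810.4 to 871.2.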

How the results depend on the processing

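The number of members past the test for Hom against WT was 3, and for Hom against Het 4. DESeq2 gave 9 and 12 (5.18% and 7.99% of all genes), omission of the 3 libraries that stand apart 13 and 9 (8.05% and 4.77%), and omission of 1 family or library at a time 1 to 7 and 2 to 7 (0.698% to 3.53% and 0.624% to 3.23%). Dropping the family block gave 3 and 5 (1.68% and 2.08%), RLE scaling 3 and 5 (1.97% and 2.16%), no filter 3 and 3 (1.16% and 1.098%); Het against WT stayed at 0 throughout. The fit without the replicate block changed no call among named members except snap25 (ENSDARG00000020609) for Hom against Het, which then passed, and moved syn2b for Hom against WT from 0.40 to 0.90. Members whose Hom and WT groups did not overlap went from 5 to 9 without the 3 libraries. Over the members named by rule, 866 of 957 recomputed fold changes kept sign and side of the threshold. Another 37 lost a call, 21 gained one with the sign kept, and 33 changed sign. Syn2b for Hom against WT without the 3 libraries is counted among the sign changes and also gained a call (adjusted p = 0.042). The sign changes concern members with no call under all libraries. Without the 3 libraries the log2 fold change for Hom against WT became 0.050 for cplx2, −0.19 for syn1, −0.21 for syn2b, −0.0045 for syt1, 0.16 for syt1b and −0.012 for syt7 (ENSDARG00000063568). Omission of 1 family or library moved it between −0.15 and 0.091 for cplx2, −0.0027 and 0.28 for sv2, −0.18 and 0.062 for sv2a, −0.28 and 0.27 for syn1, −0.32 and 0.59 for syn2b, −0.029 and 0.12 for syt1, −0.74 and 0.052 for syt1b, −0.099 and 0.44 for syt5a, −0.093 and 0.24 for syt7 (ENSDARG00000063568), −0.027 and 0.23 for vamp2, and −0.099 and 0.0005 for vamp4. The cause was not tested. The limit that depth sets on low members was not tested.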
